A study of Mus musculus with 12 samples.

Results

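The genes described here are Trp53, which encodes the tumour suppressor p53, its inhibitor Mdm2, and 8 target genes of p53, namely Btg2, Ccng1, Bax, Bbc3, Eda2r, Phlda3, Zmat3 and Trp53inp1. They were chosen by name, with earlier results of these data known. Each of the 10 has 1 row in a deposited expression table of 29462 genes. All 10 passed the filter on low values, which left 11831 genes that had at least 1 FPKM in at least 6 of 12 libraries. FPKM is a fragment count divided by the length of the gene model and by the size of the library, so it can be compared between genes as a level per length. The table was made by RNA-seq of polyadenylated RNA from primary mouse aortic smooth muscle cells. KO cells, 6 libraries, came from mice that lack cystathionine gamma-lyase (CSE, encoded by Cth) in the whole body, and WT cells, 6 libraries, came from C57BL/6J mice. Every culture of both genotypes had received angiotensin II at 1 uM for 24 h, so no library shows either genotype without it. Neither the age of the mice nor the number of mice or cultures behind each set of 6 libraries is given in the sources used here. P-values therefore measure the spread between libraries, which may be technical.

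p53 is a transcription factor that is held low by Mdm2, a ubiquitin ligase that marks it for degradation. When DNA damage or another stress frees p53 from Mdm2, the protein accumulates with little need for more of its RNA, binds paired copies of a short DNA motif and switches on genes of cell cycle arrest, cell death and repair. Mdm2 is itself such a target, which closes a feedback loop. Only RNA was measured in these cells, not p53 protein or its binding.

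Some facts of the libraries bear on all values. Library totals lay between 255538 and 281432 FPKM. The number of reads behind them is unknown. Cth was listed at 0 to 0.02 FPKM in KO and at 0 to 0.08 FPKM in WT, too low in both to check the genotype labels (exact permutation p = 0.143, two-sided). KO replicates 5 and 6 stood apart from KO replicates 1 to 4, and the difference of each of the 10 genes is given with all KO libraries and with KO replicates 1 to 4 only, as are the counts of each gene list. Fits of KO replicates 1 to 4 leave out KO replicates 5 and 6 because they stood apart. The errors, p-values and counts of those fits depend on that choice. The 24 cell cycle genes, listed as genes that p53 holds down, summed to 869 FPKM in KO replicate 5 and 902 FPKM in KO replicate 6. Their sum was 359 to 407 FPKM in KO replicates 1 to 4 and 375 to 540.1 FPKM in WT. Of 7 markers of contractile smooth muscle, Myh11, Cnn1, Lmod1 and Des stayed under 1 FPKM in all libraries, Tagln reached 1.32 FPKM at most, and Acta2 and Smtn were well expressed. Acta2 was at 75.28 to 85.09 FPKM in KO replicates 1 to 4 and 111 to 140.4 FPKM in WT. Smtn was at 8.81 to 9.64 FPKM in those KO libraries and 11.77 to 13.89 FPKM in WT. KO replicates 5 and 6 had 141.13 and 145.52 FPKM of Acta2 and 12.26 and 20.53 FPKM of Smtn. The 7 epithelial markers summed to 40.3 to 59.7 FPKM in KO and 140.1 to 148 FPKM in WT, with Epcam, Krt8, Krt18, Krt5 and Krt14 under 1 FPKM throughout. Cdh1, which encodes E-cadherin, was at 0.48 to 1.18 FPKM in KO and 63.33 to 67.56 FPKM in WT, and Krt19 at 39.34 to 58.52 FPKM in KO and 73.05 to 83.42 FPKM in WT. The 6 fibroblast markers, mostly Col1a1, summed to 901 to 977 FPKM in KO replicates 1 to 4, 442 FPKM in KO replicate 5 and 649 FPKM in KO replicate 6, and to 599.5 to 638 FPKM in WT. Of these, Dpt was at 7.82 to 19.18 FPKM in KO and 0 to 0.17 FPKM in WT, and Pdgfra at 5.09 to 13.43 FPKM in KO and 0.86 to 1.49 FPKM in WT. Col1a1, Dcn and Pdgfrb overlapped between the genotypes, and Lum did not exceed 0.09 FPKM. Dcn was at 131.51 to 151.34 FPKM in KO replicates 1 to 4 and 62.25 to 79.26 FPKM in WT. Pdgfrb was at 68.34 to 74.57 FPKM in those KO libraries and 57.78 to 67.21 FPKM in WT. KO replicates 5 and 6 were lower than WT in both, with 26.69 and 22.08 FPKM of Dcn and 36.54 and 51.49 FPKM of Pdgfrb. Totals of the 4 mesothelial markers were 4.27 to 9.26 FPKM in KO and 6.08 to 6.81 FPKM in WT, but the single genes moved in opposite directions. Msln was lower in KO, at 1.13 to 4.84 FPKM in KO and 5.61 to 6.11 FPKM in WT. Higher in KO were Wt1, at 1.27 to 1.71 FPKM against 0.1 to 0.14 FPKM in WT, and Upk3b, at 1.87 to 2.76 FPKM against 0.37 to 0.59 FPKM. Lrrn4 did not exceed 0.18 FPKM. The 5 macrophage markers summed to 8.4 to 14.8 FPKM in KO and 2.09 to 2.93 FPKM in WT. Among them Ptprc and Adgre1 were at no more than 0.04 FPKM. The 5 endothelial markers summed to 0.59 to 0.99 FPKM in KO and 0.13 to 0.28 FPKM in WT. Kdr was at 0.4 to 0.81 FPKM in KO and 0 to 0.01 FPKM in WT, while the other endothelial markers overlapped. Sex-linked RNA differed too, with every KO library above WT in Xist and below WT in the Y-linked Ddx3y, Eif2s3y, Kdm5d and Uty. The sex-linked differences run with genotype for all 10 genes. The part of all these differences in the results below was not tested.

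Of the 10 genes, 6 were higher and 2 lower in KO at an adjusted p under 0.05 (limma on log2(FPKM + 1), Benjamini-Hochberg over all genes tested). Mdm2, Btg2, Bax, Eda2r, Ccng1 and Zmat3 were the higher ones, Trp53inp1 and Bbc3 the lower ones, and Trp53 and Phlda3 did not pass. Over all 11831 genes tested 32.6% were higher and 30.9% lower in KO by the same test, or 63.5% in either direction, so that 8 of 10 called stands against a background in which most genes were called. The median difference was 0.24 on the log2 scale over the 10 genes and 0.01 over all genes tested. The 10 genes were chosen with earlier results of these data known, so neither counts nor medians test whether the set is shifted. In 3 of the 10 genes all KO values lay above all WT values and in 2 all lay below, where 23.8% and 22.5% of all genes tested did so, 46.4% together. With KO replicates 1 to 4 only, 6 were higher and 3 lower, the added gene being Phlda3, against 39.9% and 37.1% of all genes tested, 77.1% together.

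**Figure D1:**
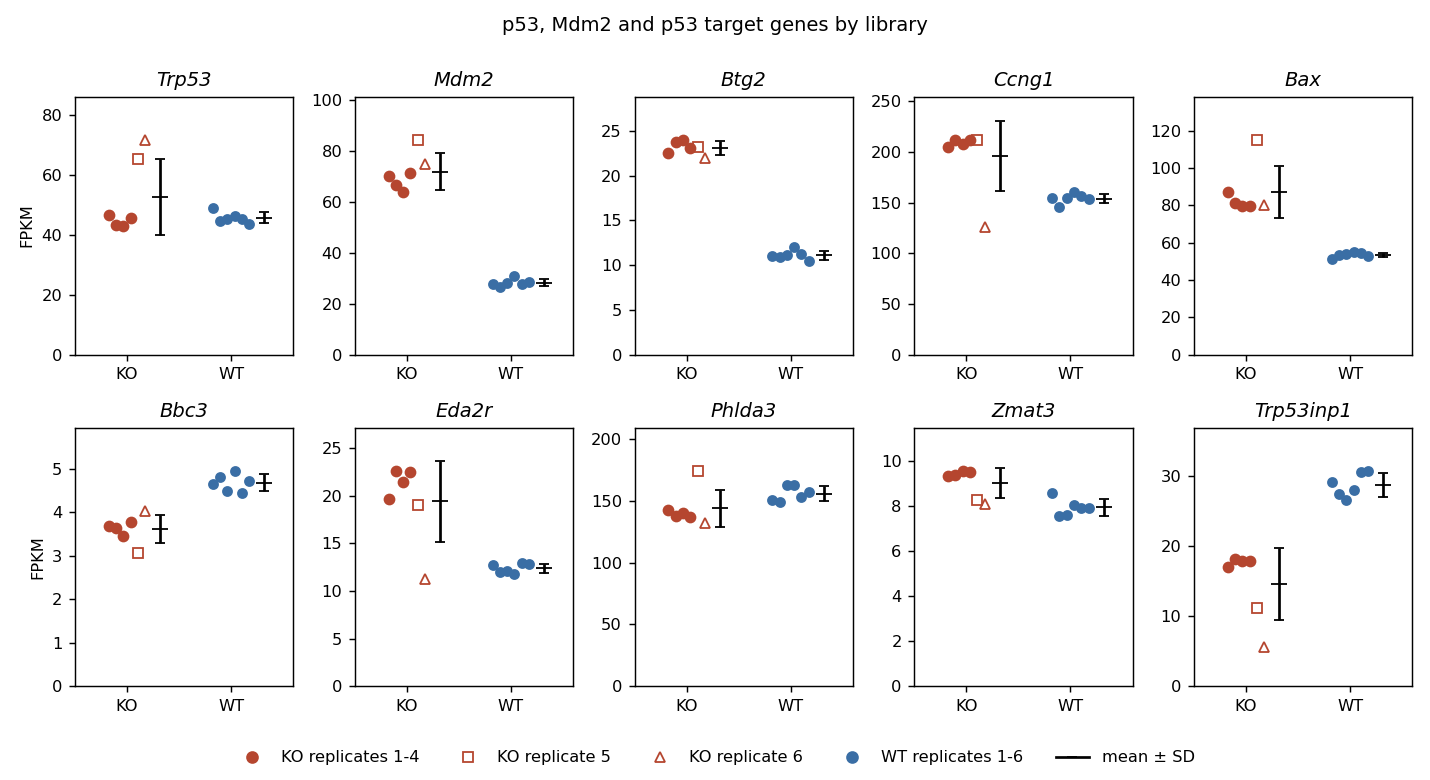
FPKM of the 10 genes in each library, KO on the left and WT on the right of each panel, with mean ± SD of the 6 libraries beside the points; each vertical axis starts at 0. KO and WT separate fully in Mdm2, Btg2, Bax, Bbc3 and Trp53inp1, while KO replicate 6 lies below WT in Ccng1 and Eda2r and KO replicates 5 and 6 lie above WT in Trp53.

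Trp53 RNA overlapped between the genotypes and was not called. It had 43.08, 46.2 and 71.77 FPKM (lowest, median and highest) in KO and 43.57, 45.2 and 48.83 FPKM in WT. KO replicates 5 and 6, at 65.41 and 71.77 FPKM, were the only libraries above 50 FPKM, and KO replicates 1 to 4, at 43.08 to 46.67 FPKM, overlapped WT. The difference was 0.17 ± 0.122 (SE) on the log2 scale with all KO libraries (limma adjusted p = 0.23). Among KO replicates 1 to 4 it was -0.03 ± 0.036 (limma adjusted p = 0.45). Trp53 lies on chromosome 11 from 69580359 to 69591873 on the plus strand of GRCm38, and its neighbour Wrap53, which encodes a telomerase and Cajal body protein and is transcribed the other way, is separated from it by 103 bases. Wrap53 was also highest in KO replicates 5 and 6, at 12.8 and 12.28 FPKM, with 5.74 to 6.59 FPKM in KO replicates 1 to 4 and 4.26 to 4.93 FPKM in WT. A processed copy of the gene, Trp53-ps, had its highest values in the same libraries, 2.98 and 2.88 FPKM, against 0.89 to 1.95 FPKM in WT, and how reads were split between the copies is not known.

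Mdm2 showed the largest rise of the 10 genes. It had 63.84, 70.9 and 84.5 FPKM (lowest, median and highest) in KO and 26.61, 28.0 and 30.84 FPKM in WT. Each KO library exceeded each WT library more than 2-fold, with KO replicate 5 the highest. The mean was 71.9 ± 7.23 FPKM in KO and 28.3 ± 1.42 FPKM in WT (SD, n = 6 each), a ratio of 2.54, and the difference of 1.31 ± 0.066 (SE) on the log2 scale passed the test (limma adjusted p = 1.7e-09). With KO replicates 1 to 4 only it was 1.24 ± 0.043 (limma adjusted p = 5.8e-11). Mdm2 lies on the minus strand of chromosome 10, from 117688875 to 117710758, and no other annotated gene overlaps it.

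Sequences before the start sites were searched for the p53 motif, since p53 acts on its targets through it. RefSeq promoter windows of 300 bases, from 250 before to 50 after a start site (GRCm38.p6), were available for 8 of the 10 genes, and for Bbc3 there were 3. A decamer was counted where it matched the p53 consensus decamer exactly, and a near-full site where 2 decamers stood side by side with at most 3 mismatches in all and with the central C and G of each decamer intact. Both motifs read the same on either strand, and a decamer may lie inside a near-full site. A near-full site was present in the windows of Trp53, Ccng1 and Bbc3, and in 1.38% of all 32851 windows. An exact decamer was present in the windows of Trp53, Ccng1, Mdm2 and Bax, and in 8.36% of all windows. Btg2, Eda2r and Phlda3 had neither, and the well known p53 sites of Mdm2, in its first intron, lie outside the window. The 3 windows with a near-full site are shown with that site in capitals, because these genes went different ways in KO: Ccng1 was higher, Bbc3 lower and Trp53 not called.
Ccng1, chr11:40755237-40755536, minus strand: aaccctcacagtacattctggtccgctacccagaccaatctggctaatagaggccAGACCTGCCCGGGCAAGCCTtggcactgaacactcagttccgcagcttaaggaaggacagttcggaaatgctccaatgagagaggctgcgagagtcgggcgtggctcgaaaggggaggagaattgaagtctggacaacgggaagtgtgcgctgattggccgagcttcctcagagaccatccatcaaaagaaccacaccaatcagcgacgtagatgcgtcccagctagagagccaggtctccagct
Bbc3, chr7:16309333-16309632, plus strand: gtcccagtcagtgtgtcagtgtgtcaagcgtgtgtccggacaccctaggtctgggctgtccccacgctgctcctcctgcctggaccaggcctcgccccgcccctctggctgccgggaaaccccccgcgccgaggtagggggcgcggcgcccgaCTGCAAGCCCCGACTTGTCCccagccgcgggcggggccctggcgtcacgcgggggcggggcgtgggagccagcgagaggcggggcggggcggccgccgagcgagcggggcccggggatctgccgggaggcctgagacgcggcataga
Trp53, chr11:69580109-69580408, plus strand: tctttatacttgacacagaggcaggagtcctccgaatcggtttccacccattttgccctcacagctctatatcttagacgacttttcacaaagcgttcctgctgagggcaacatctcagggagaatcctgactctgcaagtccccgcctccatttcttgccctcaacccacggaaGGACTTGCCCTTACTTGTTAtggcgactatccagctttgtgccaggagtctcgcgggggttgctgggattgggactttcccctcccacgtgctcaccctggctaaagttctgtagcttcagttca
The Ccng1 site, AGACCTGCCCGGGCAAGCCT, has 1 mismatch to the consensus and spans bases -195 to -176 from the start site. The Bbc3 site, CTGCAAGCCCCGACTTGTCC, has 3 mismatches and spans bases -97 to -78. The Trp53 site, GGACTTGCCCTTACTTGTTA, has 3 mismatches, spans bases -75 to -56 and falls in the gap between Trp53 and Wrap53. The decamers were GAACTTGCCT at bases -186 to -177 of Mdm2 and AGGCAAGCTT at bases -201 to -192 of Bax. These matches describe the sequence only, and binding of p53 was not measured.

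Btg2, an antiproliferative gene, and Ccng1, a cyclin gene, were both higher in KO, Btg2 evenly and Ccng1 in all but 1 library. Btg2, an antiproliferative protein that recruits the deadenylase complex CCR4-NOT to mRNA, had 22.02, 23.1 and 24.02 FPKM (lowest, median and highest) in KO and 10.47, 11.1 and 12 FPKM in WT. Its KO values were the tightest of the 10 genes, with a coefficient of variation of 3.27%, and KO replicates 5 and 6 did not stand apart. The ratio of means was 2.08 and the difference 0.99 ± 0.046 (SE) on the log2 scale (limma adjusted p = 6.4e-10), or 1.01 ± 0.037 in a fit of KO replicates 1 to 4 (limma adjusted p = 1.1e-10). Ccng1, cyclin G1, a cyclin-like protein that directs the phosphatase PP2A to Mdm2, had 125.67, 209.8 and 212.17 FPKM in KO and 145.73, 154 and 160.28 FPKM in WT. KO replicates 1 to 5, at 204.69 FPKM or more, were all above WT, and KO replicate 6, at 125.67 FPKM, was below every WT library. The difference was 0.32 ± 0.114 (limma adjusted p = 0.025) with all KO libraries, 0.44 without KO replicate 6 (limma adjusted p = 1.8e-07), or 0.44 ± 0.028 in a fit of KO replicates 1 to 4 (limma adjusted p = 1.7e-08). Both fits that lack KO replicate 6 leave out the only KO library below WT, so their p-values depend on that choice. The fit without KO replicate 6 alone called 4252 of the 11831 tested genes higher. The call of Ccng1 was lost without KO replicate 1, 2, 3 or 4 or WT replicate 2, at adjusted p-values of 0.05 to 0.054.

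The cell death genes Bax and Bbc3 moved in opposite directions. Bax, which forms pores in the outer mitochondrial membrane, had 79.42, 80.7 and 115.14 FPKM (lowest, median and highest) in KO and 51.36, 53.4 and 54.94 FPKM in WT. All KO libraries lay above WT, KO replicate 5 furthest. The mean was 87.2 ± 14 FPKM in KO and 53.4 ± 1.21 FPKM in WT (SD, n = 6 each), a ratio of 1.63, with a difference of 0.68 ± 0.083 on the log2 scale (limma adjusted p = 9.4e-06), or 0.61 ± 0.031 in a fit of KO replicates 1 to 4 (limma adjusted p = 2.6e-09). A readthrough annotation on the same strand, Gm45808, overlaps Bax and did not exceed 0.01 FPKM. Bbc3, the BH3-only protein PUMA, which frees Bax from its inhibitors, had 3.06, 3.65 and 4.02 FPKM in KO and 4.44, 4.68 and 4.94 FPKM in WT. All KO libraries lay below WT. Its ratio of means was 0.771 and its difference -0.3 ± 0.056 on the log2 scale (limma adjusted p = 0.00034), or -0.29 ± 0.039 with KO replicates 1 to 4 only (limma adjusted p = 2e-05).

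Of the other targets, Eda2r and Zmat3 were higher, Trp53inp1 was lower, and Phlda3 depended on the libraries used. Eda2r, a receptor of the tumour necrosis factor family that binds ectodysplasin A2, had 11.31, 20.5 and 22.6 FPKM (lowest, median and highest) in KO and 11.74, 12.4 and 12.92 FPKM in WT. KO replicates 1 to 5, at 19.06 FPKM or more, were above WT, and KO replicate 6 was the lowest of all 12 libraries. Its difference was 0.58 ± 0.134 on the log2 scale (limma adjusted p = 0.002), or 0.75 ± 0.044 in a fit of KO replicates 1 to 4 (limma adjusted p = 8.6e-09). Eda2r lies on the X chromosome, and sex-linked genes differed between the genotypes. Xist, which is transcribed from an inactive X chromosome, was at 0.31 to 3.53 FPKM in KO and at 0.01 to 0.04 FPKM in WT, while the Y-linked Ddx3y was at 3.49 to 6.78 FPKM in KO and 9.87 to 11.81 FPKM in WT. KO replicates 5 and 6 had 0.31 and 0.63 FPKM of Xist. The part of this in the Eda2r values was not tested.

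Zmat3, an RNA-binding zinc finger protein, had 8.1, 9.38 and 9.57 FPKM (lowest, median and highest) in KO and 7.58, 7.93 and 8.61 FPKM in WT. KO replicates 1 to 4 were above all WT libraries, and KO replicates 5 and 6, at 8.28 and 8.1 FPKM, lay within the WT range. The rise was the smallest of those called, at 0.16 ± 0.056 on the log2 scale (limma adjusted p = 0.02), or 0.23 ± 0.037 in a fit of KO replicates 1 to 4 (limma adjusted p = 0.00011). Phlda3, a pleckstrin homology domain protein that restrains the kinase Akt, had 132.46, 139 and 174.24 FPKM in KO and 148.93, 155 and 163.09 FPKM in WT. KO replicate 5 was the highest of all libraries, and the other 5 KO libraries were below all WT libraries. It was not called with all KO libraries (-0.12 ± 0.065, limma adjusted p = 0.12) and was lower without KO replicate 5 (-0.18, limma adjusted p = 0.0018) or with KO replicates 1 to 4 only (-0.16 ± 0.031, limma adjusted p = 0.00042). Both fits that lack KO replicate 5 leave out the only KO library above WT, so their p-values depend on that choice. The fit without KO replicate 5 alone called 3795 of the 11831 tested genes lower.

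Trp53inp1, a stress-induced nuclear protein that promotes p53 activity and autophagy, had the largest fall. It had 5.61, 17.4 and 18.22 FPKM (lowest, median and highest) in KO and 26.66, 28.6 and 30.76 FPKM in WT. All KO libraries were below WT, and KO replicates 5 and 6, at 11.21 and 5.61 FPKM, were lower than KO replicates 1 to 4, at 17.05 to 18.22 FPKM. The mean was 14.6 ± 5.15 FPKM in KO and 28.8 ± 1.7 FPKM in WT (SD, n = 6 each), a ratio of 0.508. The difference was -1.02 ± 0.225 on the log2 scale (limma adjusted p = 0.0014), or -0.67 ± 0.043 in a fit of KO replicates 1 to 4 (limma adjusted p = 2.2e-08). The difference was thus more than 1.5 times as large with KO replicates 5 and 6 as without them.

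**Figure D2:**
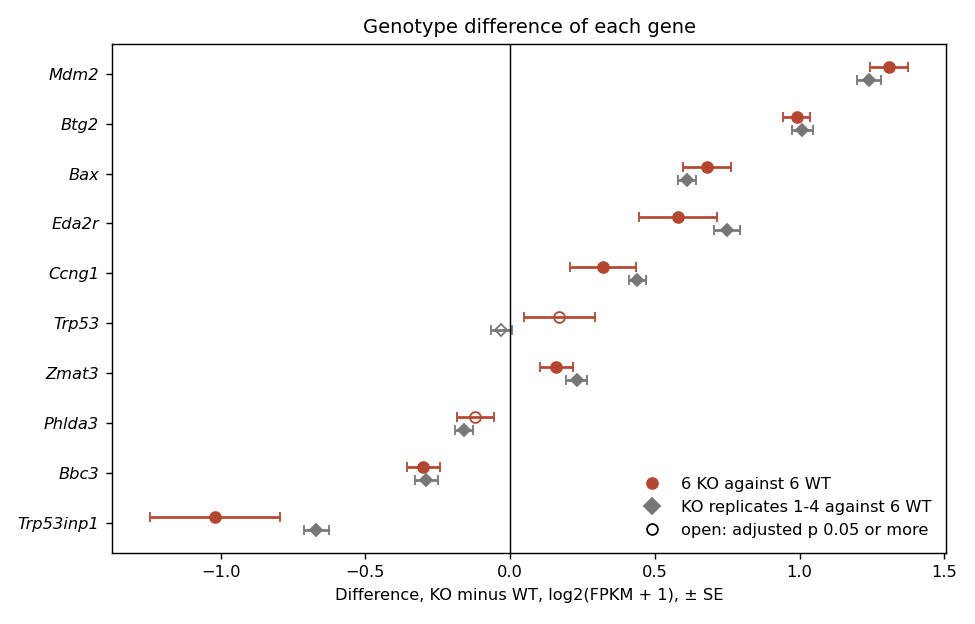
Difference in log2(FPKM + 1), KO minus WT, with its standard error, for the 10 genes, with all 6 KO libraries (circles), and in KO replicates 1 to 4 (diamonds) against the 6 WT libraries. Leaving out KO replicates 5 and 6 narrows the errors and moves Trp53inp1 to -0.67 and Trp53 to -0.03.

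The order of the levels differed between genotypes for 6 of the 10 genes, and Trp53inp1 moved furthest, to rank 8 in KO against rank 5 in WT. In KO it ran Ccng1, Phlda3, Bax, Mdm2, Trp53, Btg2, Eda2r, Trp53inp1, Zmat3 and Bbc3, with mean levels between 196 and 3.6 FPKM. In WT it ran Phlda3, Ccng1, Bax, Trp53, Trp53inp1, Mdm2, Eda2r, Btg2, Zmat3 and Bbc3, between 156 and 4.67 FPKM. Neighbours whose library values overlapped in WT were Phlda3 and Ccng1, Trp53inp1 and Mdm2, and Eda2r and Btg2. In KO, Phlda3 overlapped Bax in no library, Trp53 did not overlap Btg2, and Zmat3 did not overlap Bbc3, while all other neighbours overlapped. Mdm2 ranked 574 of 11831 tested genes by mean level in KO and 1458 in WT.

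Ratios within a library do not depend on how the library was scaled. Mdm2 over Trp53 was 1.04 to 1.56 in KO and 0.567 to 0.665 in WT, and KO replicates 5 and 6 had the lowest KO values, 1.29 and 1.04. Trp53inp1 over Trp53 was 0.0782 to 0.421 in KO and 0.588 to 0.706 in WT. Bax over Bcl2l1, the gene of the survival protein Bcl-xL, was 2.96 to 3.97 in KO and 1.64 to 1.81 in WT, with no overlap. Zmat3 over Trp53 was 0.113 to 0.222 in KO and 0.168 to 0.182 in WT, where KO replicates 1 to 4 lay above WT and KO replicates 5 and 6 below. Ccng1 over Trp53 behaved likewise, with 4.39 to 4.89 in KO replicates 1 to 4, 3.24 and 1.75 in KO replicates 5 and 6, and 3.16 to 3.52 in WT, except that KO replicate 5 fell inside the WT range.

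**Figure D3:**
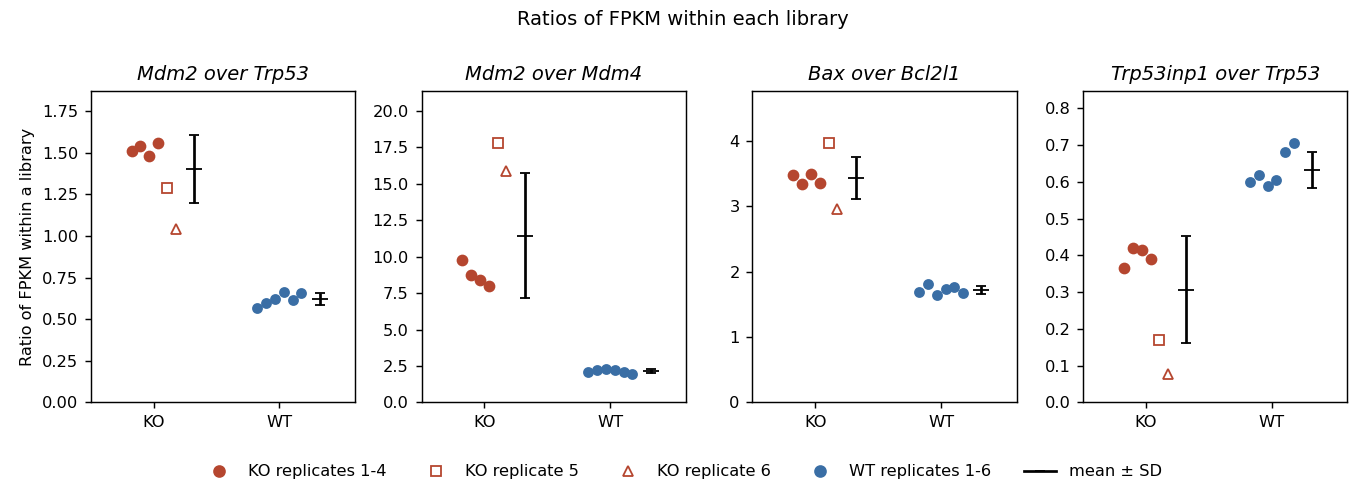
Ratio of the FPKM of 2 genes within each library, KO on the left and WT on the right of each panel, with mean ± SD of the 6 libraries; each axis starts at 0. Mdm2 over Mdm4 is 7.95 to 17.8 in KO and 1.92 to 2.3 in WT, and no panel shows an overlap of KO and WT.

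Genes that control p53 were called in both directions, as were all genes tested. Of 26 listed, Trp73 had no row here, Trp63 was below the filter, and of the 24 tested 7 were higher, 10 lower and 7 not called, with a median difference of -0.1 on the log2 scale, where 32.6% of all genes tested were higher and 30.9% lower. With KO replicates 1 to 4 only, 5 were higher and 12 lower, against 39.9% and 37.1% of all genes. Mdm4, the partner and relative of Mdm2 that blocks p53 without degrading it, averaged 6.81 ± 1.71 FPKM in KO and 13.3 ± 1.06 FPKM in WT (SD, n = 6 each; difference -0.9, limma adjusted p = 4.7e-05), and its difference was -0.69 in a fit of KO replicates 1 to 4 (limma adjusted p = 8.6e-07). Mdm2 over Mdm4 was therefore 7.95 to 17.8 in KO and 1.92 to 2.3 in WT, with KO replicates 5 and 6 highest. Prkdc, the catalytic subunit of the DNA-dependent kinase, averaged 1.4 ± 0.218 FPKM in KO and 3.29 ± 0.205 FPKM in WT (difference -0.84, limma adjusted p = 1.1e-07). Usp7, which removes ubiquitin from p53 and Mdm2, was lower (difference -0.3, limma adjusted p = 0.00029), as was the kinase gene Atr (-0.3, limma adjusted p = 0.00037). Rpl5 and Rpl11, ribosomal proteins that bind Mdm2, were lower, with differences of -0.34 and -0.41 on the log2 scale (limma adjusted p = 7.2e-05 and 0.00013), although reads of ribosomal protein genes can be shared with their many pseudogenes. Among the higher genes were Rchy1, a ubiquitin ligase for p53 (difference 0.62, limma adjusted p = 0.00011), and the coactivator Ep300 (0.45, limma adjusted p = 0.0015). Cdkn2a, the locus of p16 and of the Mdm2 inhibitor Arf, was at 23.81 to 36.1 FPKM in KO and 27.55 to 35.15 FPKM in WT and was not called (limma adjusted p = 0.9). Trp63, a p53 relative of epithelial cells, was at 0 to 0.02 FPKM in KO and 0.36 to 0.44 FPKM in WT (exact permutation p = 0.00216, two-sided, the smallest that 924 assignments of the libraries can give).

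Of 8 other p53 targets in cell cycle arrest 5 passed the filter, and all 5 of these were higher in KO, where 32.6% of all genes tested were higher. They were also higher in a fit of KO replicates 1 to 4, against 39.9% of all genes: Cdkn1a, Gtse1, Plk2, Plk3 and Gadd45a, with a median difference of 0.97. Cdkn1a, the kinase inhibitor p21, averaged 71.4 ± 4.37 FPKM in KO and 36 ± 1.08 FPKM in WT (SD, n = 6 each; limma adjusted p = 2.1e-09), with no overlap, and its difference was 0.97 with all KO libraries and 0.93 with KO replicates 1 to 4 (limma adjusted p = 3.3e-10). Of its 2 promoter windows the first holds a near-full site with 1 mismatch, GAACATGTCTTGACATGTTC, at bases -51 to -32, and the second holds neither motif. Gtse1, which shuttles p53 out of the nucleus in G2 phase, averaged 51.1 ± 17.8 FPKM in KO and 14.1 ± 1.2 FPKM in WT, and Plk2, a polo-like kinase, 31.7 ± 12.3 FPKM in KO and 12.4 ± 0.703 FPKM in WT. Both were highest in KO replicates 5 and 6, Gtse1 at 62.14 and 82.65 FPKM and Plk2 at 45.93 and 49.24 FPKM, where the cell cycle genes were also highest. Gadd45a, a stress protein of the G2 checkpoint, was at 10.61 to 11.48 FPKM in KO replicates 1 to 4, at 4.18 and 3.63 FPKM in KO replicates 5 and 6, and at 3.9 to 4.96 FPKM in WT. The 3 genes below the filter did not all go the same way. Sfn, the G2 checkpoint protein 14-3-3 sigma, was lower in KO, at 0.49 ± 0.0865 FPKM in KO and 0.828 ± 0.181 FPKM in WT (exact permutation p = 0.00433, two-sided). Ptprv, at 0.08 to 0.24 FPKM in KO and 0.01 to 0.05 FPKM in WT, was higher (exact permutation p = 0.00216), and so was Rprm, at 0 to 0.36 FPKM in KO and listed at 0 in all WT libraries (exact permutation p = 0.0152). These p-values are unadjusted.

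Of 11 targets in cell death that were tested, 7 were higher and 4 lower in KO, against 32.6% and 30.9% of all genes tested, with a median difference of 0.47. The counts were the same for KO replicates 1 to 4 only, against 39.9% and 37.1% of all genes. The smallest p of the list was that of Rap2b, a small GTPase, at 4.25 ± 0.335 FPKM in KO and 6.44 ± 0.195 FPKM in WT (limma adjusted p = 2.1e-06). The higher genes with the smallest p were Aen, an apoptosis-enhancing nuclease (15.1 ± 1.67 FPKM in KO and 9.88 ± 0.184 FPKM in WT, limma adjusted p = 4.7e-06), Ei24, a protein of the endoplasmic reticulum (18.6 ± 2.44 FPKM in KO and 12 ± 0.429 FPKM in WT, limma adjusted p = 1.2e-05), and Apaf1, the scaffold of the apoptosome (8.74 ± 0.705 FPKM in KO and 6.01 ± 0.432 FPKM in WT, limma adjusted p = 2e-05). The 4 lower genes were Pmaip1, which encodes the BH3-only protein NOXA, Bid, Rap2b and the death receptor gene Fas. Pmaip1 averaged 1.17 ± 0.288 FPKM in KO and 2.62 ± 0.12 FPKM in WT (limma adjusted p = 4.3e-06). Perp, a desmosome-associated protein of epithelia, was at 3.72 to 4.87 FPKM in KO replicates 1 to 4 but at 0.84 and 0.61 FPKM in KO replicates 5 and 6, against 0.85 to 1.06 FPKM in WT.

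Targets in repair and metabolism were also called in both directions, against 32.6% higher and 30.9% lower over all genes tested. Of 18 tested, 8 were higher, 7 lower and 3 not called in KO, with a median difference of 0.19; with KO replicates 1 to 4 only, 9 were higher and 7 lower, against 39.9% and 37.1% of all genes. The called genes of smallest p were Dcxr, a carbonyl reductase (43.7 ± 4.13 FPKM in KO and 18.9 ± 1.48 FPKM in WT, limma adjusted p = 1.1e-08), Polk, a translesion polymerase (10.1 ± 0.491 FPKM in KO and 5.45 ± 0.386 FPKM in WT, limma adjusted p = 3.1e-08), and Dglucy, D-glutamate cyclase (27.1 ± 1.14 FPKM in KO and 17.5 ± 0.35 FPKM in WT, limma adjusted p = 6.3e-08). The DNA damage recognition genes Ddb2 and Xpc were lower, Ddb2 at 1.21 ± 0.287 FPKM in KO and 3.05 ± 0.351 FPKM in WT (limma adjusted p = 1.9e-06) and Xpc at 4.3 ± 0.798 FPKM in KO and 6.29 ± 0.265 FPKM in WT (limma adjusted p = 0.00073). The related stress proteins of the sestrin family differed in direction: Sesn2 was at 13.9 ± 1.31 FPKM in KO and 8.2 ± 0.391 FPKM in WT (limma adjusted p = 4.8e-07), and Sesn1 at 3.7 ± 1.21 FPKM in KO and 5.36 ± 0.557 FPKM in WT (limma adjusted p = 0.019).

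**Figure D4:**
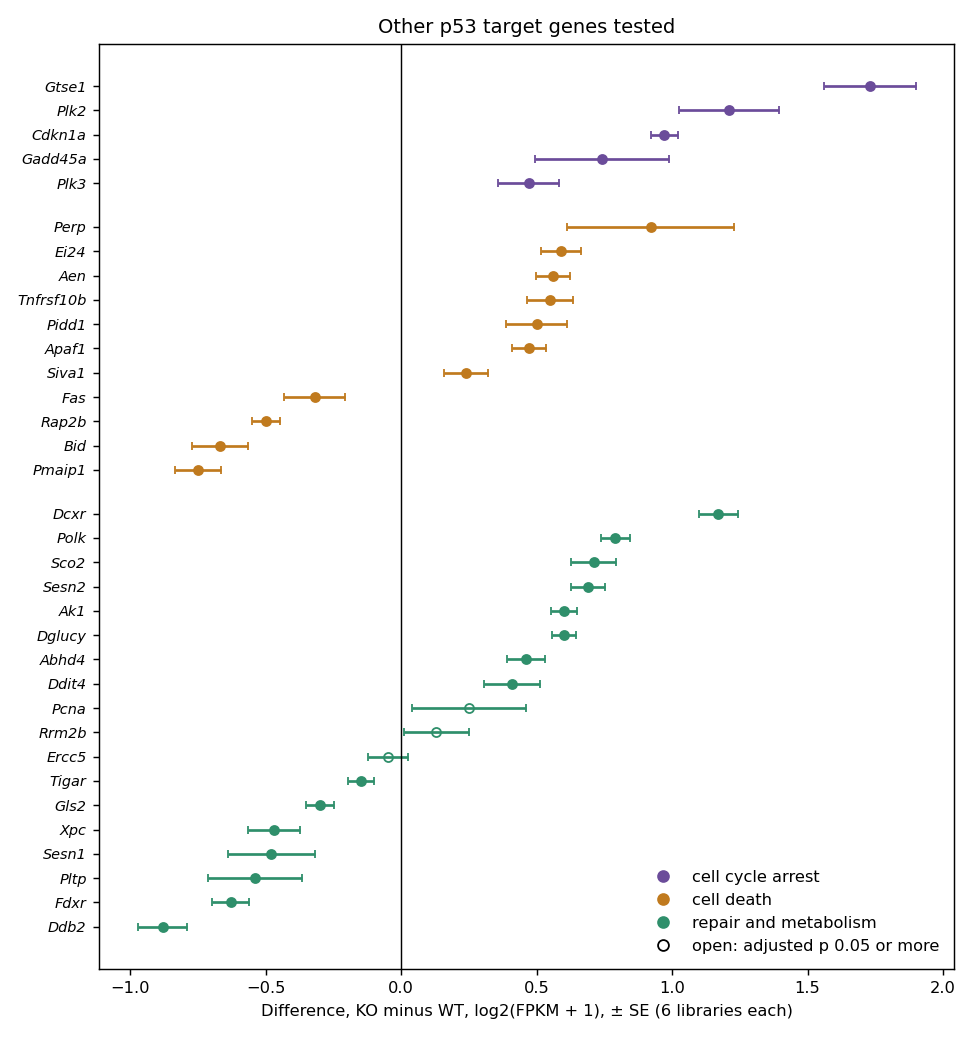
Difference in log2(FPKM + 1), KO minus WT, with its standard error, for the 34 other p53 targets that could be tested, grouped by role; filled points passed the test. The 5 arrest genes all lie right of 0, while cell death and repair genes lie on both sides.

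Bax and Bbc3 act within the Bcl2 family, of which 16 other genes were listed, 13 had a row and 11 were tested: 2 were higher, 6 lower and 3 not called in KO, with a median difference of -0.29, where 32.6% of all genes tested were higher and 30.9% lower. With KO replicates 1 to 4 only, 3 were higher and 7 lower, against 39.9% and 37.1% of all genes, and Bid and Pmaip1 are also in the cell death list. The higher genes were Bad (15.9 ± 1.01 FPKM in KO and 10 ± 0.423 FPKM in WT, limma adjusted p = 2.7e-07) and Bok (14.8 ± 1.45 FPKM in KO and 9.33 ± 1.03 FPKM in WT, limma adjusted p = 1.7e-05), both known to promote cell death. The lower genes included survival genes and death genes alike, Bcl2 at 1.81 ± 0.341 FPKM in KO and 3.09 ± 0.18 FPKM in WT (limma adjusted p = 4.4e-05) and Bcl2l11, which encodes the BH3-only protein BIM, at 2.3 ± 0.351 FPKM in KO and 4.1 ± 0.22 FPKM in WT (limma adjusted p = 5.2e-06).

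Relatives of the 8 targets that were not listed as p53 targets gave 4 higher, 3 lower and 3 not called of 10 tested, against 32.6% higher and 30.9% lower over all genes, with a median difference of 0.01. With KO replicates 1 to 4 only, 5 were higher and 5 lower, against 39.9% and 37.1% of all genes. Tob1, of the same family as Btg2, was at 22.4 ± 2.67 FPKM in KO and 50.3 ± 1.6 FPKM in WT (difference -1.14, limma adjusted p = 1.8e-08), the opposite direction to Btg2. Trp53inp2, the paralog of Trp53inp1, was at 25.6 ± 4.61 FPKM in KO and 11.1 ± 0.363 FPKM in WT (limma adjusted p = 6.7e-07), again the opposite direction. Phlda1 was at 30.8 ± 2.83 FPKM in KO and 15.1 ± 1.44 FPKM in WT (limma adjusted p = 1.4e-07), and Ccng2, the paralog of Ccng1, at 6.72 ± 2.52 FPKM in KO and 10.6 ± 0.881 FPKM in WT (limma adjusted p = 0.015), with its lowest values of 4.51 and 2.65 FPKM in KO replicates 5 and 6.

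Cell cycle genes that p53 holds down through p21 and the DREAM complex gave different counts with and without KO replicates 5 and 6, in which their sum was highest. These are the same 24 genes whose sums were given above for KO replicates 5 and 6, so the change in counts is not a separate result. Of 24 tested, 5 were higher, 2 lower and 17 not called in KO, with a median difference of 0.06, where 63.5% of all genes tested were called. In a fit of KO replicates 1 to 4, 5 were higher and 15 lower, against 39.9% and 37.1% of all genes. The 5 higher genes were Tyms, Cks2, Cdk1, Plk1 and Ccnb1, and the 2 lower ones Top2a and Ccnb2. Genes of the integrated stress response, which shares Sesn2 and Ddit4 with the p53 targets and can induce Bbc3 through its factor CHOP, were higher in 8 of 10 tested, against 32.6% of all genes, with Trib3 and Asns not called. In a fit of KO replicates 1 to 4, in which Asns was called too, 9 of 10 were higher, against 39.9% of all genes. Among them Atf4 was at 65.6 ± 2.58 FPKM in KO and 38.3 ± 2.67 FPKM in WT (limma adjusted p = 5.2e-08), Atf3 at 1.74 ± 0.332 FPKM in KO and 0.41 ± 0.116 FPKM in WT (limma adjusted p = 4.8e-07), and Ddit3, the gene of CHOP, at 12.8 ± 3.33 FPKM in KO and 7.05 ± 0.598 FPKM in WT (limma adjusted p = 0.00063). The part of either group in the values of the p53 targets was not tested.

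The genes most like Mdm2 by Pearson correlation of log2(FPKM + 1) over the 12 libraries were Tcaf2, Cbr3 and Pak1ip1, with r of 0.996 to 0.997. Within the 6 KO libraries r was 0.9 to 0.95 and within the 6 WT libraries 0.37 to 0.83, and 1681 of the tested genes had an r above 0.9, since the genotype difference dominates such a correlation. Those most like Trp53 were Ruvbl2, Gpatch4 and Prim1, with r of 0.98 to 0.982 over the 12 libraries, all highest in KO replicates 5 and 6. For these genes r was 0.99 or more within the 6 KO libraries and 0.57 to 0.71 within the 6 WT libraries. An r above 0.9 with Trp53 was found for 287 of the tested genes. Prim1, a primase subunit of DNA replication, was at 13.6 and 14.11 FPKM in KO replicates 5 and 6, 6.51 to 7.7 FPKM in KO replicates 1 to 4 and 6.35 to 7.91 FPKM in WT. These values describe the libraries and carry no test.

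In the authors' deposited table, whose ratio is of WT over KO, Mdm2 and Btg2 were the 2 of the 10 genes marked significant, with ratios of 0.39 and 0.48. The authors' deposited table gave a q-value of at most 0.05 to 8 of the 10, and the exceptions were Trp53 (q-value 0.35) and Phlda3 (0.19). The share of all genes that met either mark was not counted, so neither count sets the 10 genes apart.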

How the data were processed

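The deposited values are FPKM made by the authors, 1 column per library, to 2 decimals. Depth in reads is unknown: the table holds no counts, and low values do not fall on whole steps. Per the submitters' processing notes, which give no roles, mm9, StringTie 1.3.4d, HISAT2 2.0.4, cutadapt 1.9, edgeR and DESeq2 were involved. The authors' deposited ratio (fold) of mean FPKM, WT over KO, its log2 and the p-value and q-value come from a test not given in the sources used here. Use of strand by the counting step is not stated.

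Samples were grouped by genotype in their labels. log2(FPKM + 1) was compared with limma 3.58.1 (R 4.3.3, trend on mean level, no covariate) over 11831 genes (1 FPKM or more in 6 or more of the 12 libraries), two-sided, Benjamini-Hochberg over all of them, at 0.05. Folds on this scale understate changes of low genes. Genes below the filter had an exact permutation test over all 924 assignments. The fit was tested on simulated data. Of the IDs, 29384 of 29462 matched GENCODE M21 (GRCm38), whose positions are given; promoter windows are from RefSeq (GRCm38.p6).

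The rule named all 10 members, up to 3 called genes of smallest p in each other list, genes of counts of 5 or fewer, and the 3 genes most correlated with Trp53 and with Mdm2. Any further list gene in the text was chosen after its values were seen. Members and lists were chosen with earlier results of these data known. Alternatives covered the pseudocount, the filter, scaling, the variance model, library weights, a block for the replicate number, a rank-sum test, each library left out and KO replicates 1 to 4 only.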

Additional observations from a re-analysis of the deposited data

Results flagged for a closer look

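In 4 of the 20 groups formed by 10 genes and 2 genotypes, the highest or lowest library lay further from its nearest neighbour than Dixon's 95% critical value of 0.625 allows for 6 values, all of them in KO. For independent groups about 5% would be flagged by chance, but these 20 groups share the same libraries. The share of all genes tested that this rule flags was not counted, so the 4 groups do not set the 10 genes apart. Ccng1 was at 125.67 FPKM in KO replicate 6 (gap over range 0.914), where the other KO libraries had 204.69 FPKM or more. Eda2r was at 11.31 FPKM in the same library (0.686), against 19.06 FPKM or more. Bax was at 115.14 FPKM in KO replicate 5 (0.781), where no other KO library passed 87.24 FPKM. Phlda3 was at 174.24 FPKM in KO replicate 5 (0.753), against 142.8 FPKM at most in the others.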

How the results depend on the processing

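Mdm2, Btg2, Bax and Trp53inp1 kept their direction and their call under all 23 alternatives, and Bbc3 under the 22 in which it was tested. The difference ranged over 1.18 to 1.36 for Mdm2, 0.9 to 1.06 for Btg2, 0.56 to 0.71 for Bax, -1.13 to -0.66 for Trp53inp1 and -0.37 to -0.27 for Bbc3. With a minimum of 5 FPKM, 1 member was called lower, since Bbc3 was then not tested. Fewer genes were tested under that filter, of which 2505 were called higher and 2270 lower. Without a filter Ccng1 was not called (adjusted p = 0.054), and with the exact rank-sum test neither Ccng1 nor Eda2r was (0.094 each). Phlda3 was called lower with quantile normalization (adjusted p = 0.036) and library weights (0.00022). The difference of Trp53 ranged over -0.04 to 0.22 and was called under none (limma adjusted p from 0.14 to 0.7, rank-sum 0.74). Replicate numbers are shared by both genotypes in the labels, but same-numbered libraries did not deviate together (correlations over genes of -0.273 to -0.0582 in 6 pairs). With the replicate block 5 members were higher and 2 lower, among 3610 genes higher and 3349 lower in all; Zmat3 was not called (adjusted p = 0.058). The median difference of all genes was 0.0087 on the log2 scale as reported and -0.0381 to 0.0291 under the other scalings.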
